A study of Homo sapiens with 12 samples.

Results

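The BTG and TOB genes encode a small family of antiproliferative proteins, and 5 of them (BTG1, BTG2, BTG3, TOB1 and TOB2) are described here across every condition of an RFX7 knockdown experiment. They were taken by name from the 4 comparison tables, and all 5 of 5 were present in each table, out of 23195 genes in both Nutlin-3a tables, 20026 in the table of siRFX7 in DMSO and 19393 in the table of siRFX7 in Nutlin-3a. BTG4, the remaining human family member, was not analysed here. All 12 libraries came from HCT116, an established human colorectal carcinoma cell line that keeps wild-type p53, and held polyA RNA. Cells received either siControl, by its name a control siRNA, or siRFX7, an siRNA against the transcription factor RFX7, and then 10 µM Nutlin-3a or the solvent DMSO for 24 h. This gave 4 groups of 3 replicates: siControl with DMSO, siControl with Nutlin-3a, siRFX7 with DMSO and siRFX7 with Nutlin-3a. Every group therefore carried an siRNA and a solvent or drug, and the sequence and number of siRNAs are not given in the sources used here. Whether the replicates were separate cultures is not given in the sources used here, so the p-values measure the spread between these samples, which may be technical.

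BTG and TOB proteins share an N-terminal BTG domain that binds the deadenylases CNOT7 and CNOT8 of the CCR4-NOT complex, and through it they promote shortening of the poly(A) tail and decay of mRNAs. The TOB proteins have a longer C-terminal part that also binds the poly(A) binding protein PABPC1, while BTG1 and BTG2 are short proteins that are also known to bind the arginine methyltransferase PRMT1. BTG2 is a classical p53 target gene, Nutlin-3a releases p53 from its inhibitor MDM2, and RFX7 is a winged-helix factor known to act downstream of p53.

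The tables give 1 value per gene and comparison, so levels are given per group and not per library. Group means of normalized counts, which are counts divided by each library's size factor, were worked out from the mean over all libraries and the fold changes, and summed to between 25915992 and 27407526 per group. The spread between libraries could not be seen and was solved from the authors' standard errors, so it is that of their fitted model. Beyond counting noise, this modelled coefficient of variation was 3.43% for TOB1, 4.08% for BTG3, 5.06% for TOB2, 5.07% for BTG2 and 6.12% for BTG1. The siRNA target RFX7 had a log2 fold change with siRFX7 of -2.35 in DMSO and -2.14 in Nutlin-3a, per the authors' deposited tables. CDKN1A, the p53-induced CDK inhibitor, rose by 4.46 with Nutlin-3a in siControl and by 3.53 in siRFX7 in log2 units, per the authors' deposited tables. The epithelial markers EPCAM, CDH1, KRT8, KRT18 and KRT19 had mean normalized counts from 2585 for CDH1 to 80340 for KRT8, and 4 of these 5 rose and 1 fell with Nutlin-3a under either siRNA. With siRFX7, 2 of the 5 rose and 1 fell in DMSO. Among all genes with a mean of at least 1000 normalized counts, Nutlin-3a raised 36.6% and lowered 32.8% in siControl. In siRFX7 it raised 38.5% and lowered 28.3% of them. The knockdown in DMSO raised 16.5% and lowered 27.8% of these genes. Of the fibroblast markers, COL3A1 had a mean of 2.08 normalized counts. COL1A1 stood at 400, 349, 515 and 500 normalized counts in the 4 groups in the order given above, and was higher with siRFX7 by 0.36 in DMSO and 0.52 in Nutlin-3a in log2 units, per the authors' deposited tables; its part in the siRFX7 results was not tested. PTPRC, CD3E and PECAM1, markers of leukocytes and endothelium, were not analysed here. In bulk RNA such as this, a change in the share of cells that express a gene and a change in its RNA per cell cannot be told apart.

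BTG2 (ENSG00000159388, chromosome 1 from 203305491 to 203309602, plus strand, GRCh38) went from a low-ranking to the most abundant family member when p53 was activated. Its group mean was 1093 normalized counts in siControl with DMSO (95% interval 1022 to 1168), 10656 in siControl with Nutlin-3a (10052 to 11296), 1766 in siRFX7 with DMSO (1657 to 1881) and 9772 in siRFX7 with Nutlin-3a (9217 to 10360). Both Nutlin-3a groups thus lay far above both DMSO groups, and their intervals overlapped. The DMSO groups were apart, with the knockdown higher. The Nutlin-3a response was a 9.75-fold rise in siControl (log2 fold change 3.29, SE 0.07, Wald statistic 50.3) and a 5.53-fold rise in siRFX7 (2.47, SE 0.06, Wald statistic 39.0), per the authors' deposited tables, which list both DESeq2 adjusted p-values as 0. With siRFX7, BTG2 rose 1.62-fold in DMSO (log2 fold change 0.69, SE 0.07, DESeq2 adjusted p 1.37e-22), per the authors' deposited table. Under the drug, the siRFX7 log2 fold change of BTG2 was -0.12 (95% interval -0.24 to -0.01, DESeq2 adjusted p 0.114), per the authors' deposited table, so it was not called.

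The promoter sequence of BTG2 is shown because this gene had the largest rise of the family. RefSeq's GRCh38.p14 promoter table holds 250 bases before and 50 from each transcript start, and all 5 genes matched it by symbol, with 6 windows in all since TOB1 has 2 starts. The 150 bases that end just before the first annotated BTG2 exon lie at chr1:203305341-203305490 on the plus strand, and the capitals mark a CCAAT box.
BTG2 upstream: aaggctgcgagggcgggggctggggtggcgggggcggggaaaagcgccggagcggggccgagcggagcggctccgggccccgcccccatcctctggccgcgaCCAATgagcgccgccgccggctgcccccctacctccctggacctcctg
The BTG2 window was 73.3% G and C. A TATA box, searched as TATAA on both strands, was found in the BTG1 window and in 20.4% of all 35116 promoter windows. The BTG1 match lies inside an annotated BTG1 exon. CCAAT, searched on both strands, was found in the windows of BTG1, BTG2 and the second TOB1 start, and in 34.6% of all windows. The 10-base p53 half-site, searched on both strands, was found in none of the 6 family windows and in 6.63% of all windows, and sites farther from the start were not searched.

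TOB1 (ENSG00000141232, chromosome 17 from 50862223 to 50867978, minus strand, GRCh38), named as a transducer of ERBB2, also rose with Nutlin-3a under both siRNAs, and its rise was smaller in the knockdown. Its group mean was 2094 normalized counts in siControl with DMSO (95% interval 2000 to 2193), 4373 in siControl with Nutlin-3a (4192 to 4562), 2479 in siRFX7 with DMSO (2370 to 2593) and 3257 in siRFX7 with Nutlin-3a (3118 to 3402). None of these 4 intervals overlap. The siControl cells held both the lowest level, without drug, and the highest, with drug, and the knockdown cells lay between them. Nutlin-3a raised TOB1 2.09-fold in siControl (log2 fold change 1.06, SE 0.05, DESeq2 adjusted p 1.01e-115), per the authors' deposited table. In siRFX7 the rise was 1.31-fold (0.39, SE 0.05, DESeq2 adjusted p 1.18e-16), per the authors' deposited table. The knockdown moved TOB1 in opposite directions in the 2 treatments: it rose 1.18-fold in DMSO (0.24, SE 0.05, DESeq2 adjusted p 3.15e-06) and fell to 0.745 of the siControl level in Nutlin-3a (-0.43, SE 0.04, DESeq2 adjusted p 1.83e-19), per the authors' deposited tables.

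TOB2 (ENSG00000183864, chromosome 22 from 41433492 to 41447023, minus strand, GRCh38) is the closest relative of TOB1. It had 2838 normalized counts in siControl with DMSO (95% interval 2670 to 3017), 3571 in siControl with Nutlin-3a (3362 to 3793), 2367 in siRFX7 with DMSO (2225 to 2518) and 2557 in siRFX7 with Nutlin-3a (2404 to 2719). Only the siControl group with Nutlin-3a stood clear above the rest; both knockdown groups overlapped each other. Nutlin-3a raised TOB2 1.26-fold in siControl (log2 fold change 0.33, SE 0.06, DESeq2 adjusted p 7.95e-07), per the authors' deposited table. In siRFX7 its log2 fold change was 0.11 (95% interval -0.01 to 0.24, DESeq2 adjusted p 0.164), per the authors' deposited table. Unlike TOB1, TOB2 fell with siRFX7 in both treatments, to 0.834 of siControl in DMSO (-0.26, SE 0.06, DESeq2 adjusted p 3.21e-04) and to 0.716 in Nutlin-3a (-0.48, SE 0.06, DESeq2 adjusted p 1.17e-12), per the authors' deposited tables.

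The family's promoter windows were searched for the X-box, an element that RFX factors bind. Those of the TOB genes are shown because matches were found for TOB1 and TOB2 only. BTG1, BTG2 and BTG3, without a match, also changed with siRFX7 in DMSO, in Nutlin-3a or in both. A link between match and change was not tested. The X-box half-site was searched as GTTGCNA on both strands, and no match overlapped that of another motif. It was found in the window of the upstream TOB1 start with its first base at position -207, at chr17:50868167-50868196 on the minus strand, and in the TOB2 window with its first base at position -31 from the RefSeq start, at chr22:41446814-41446843 on the minus strand. The capitals mark the match within 30 bases.
TOB1 upstream start: tccactcctgtTTGCAACtaaaaaacccaa
TOB2: ccgtgcgcaggGTTGCTAagggtgaaactt
The same half-site was found in 9.21% of all 35116 windows and in none of the BTG1, BTG2, BTG3 and second TOB1 windows. The TOB2 match lies inside an annotated TOB2 exon, and 272 bases of that window are exonic in GENCODE 29. The second, more downstream TOB1 start at position 50866354 is preceded by the following 150 bases at chr17:50866355-50866504 on the minus strand, in which no motif searched was found.
TOB1 downstream start: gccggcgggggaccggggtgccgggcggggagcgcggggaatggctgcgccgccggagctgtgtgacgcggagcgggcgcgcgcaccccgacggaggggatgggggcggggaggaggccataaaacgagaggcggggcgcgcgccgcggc
The 2 TOB1 windows differed in composition, with 41.3% G and C at the upstream start and 78.7% at the downstream one. The tables give 1 value per gene, so use of the 2 starts was not measured. A motif match describes the letters in the window and is not a measured binding site.

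BTG1 (ENSG00000133639, chromosome 12 from 92140278 to 92145897, minus strand, GRCh38), the paralog closest to BTG2, was the least abundant member. It had 767 normalized counts in siControl with DMSO (95% interval 708 to 831), 1462 in siControl with Nutlin-3a (1356 to 1576), 660 in siRFX7 with DMSO (608 to 717) and 1147 in siRFX7 with Nutlin-3a (1062 to 1238). Both drug-treated groups were above both DMSO groups, whose intervals overlapped, and the knockdown group was the lower one under the drug. The Nutlin-3a rise was 1.91-fold in siControl (log2 fold change 0.93, SE 0.08, DESeq2 adjusted p 3.50e-29) and 1.74-fold in siRFX7 (0.80, SE 0.08, DESeq2 adjusted p 6.72e-21), per the authors' deposited tables. With siRFX7 it fell to 0.784 of siControl in Nutlin-3a (-0.35, SE 0.08, DESeq2 adjusted p 9.19e-05), per the authors' deposited table. In DMSO it fell to 0.861 (-0.22, SE 0.08, DESeq2 adjusted p 0.0376), per the authors' deposited table, a call that was lost with equal group totals (-0.16, adjusted p 0.152) and with the median gene set to 0 (-0.18, adjusted p 0.0918).

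BTG3 (ENSG00000154640, chromosome 21 from 17593653 to 17612947, minus strand, GRCh38), a more distant BTG gene that is also described as p53-inducible, varied least. It had 1838 normalized counts in siControl with DMSO (95% interval 1743 to 1938), 2166 in siControl with Nutlin-3a (2055 to 2281), 1814 in siRFX7 with DMSO (1720 to 1913) and 1892 in siRFX7 with Nutlin-3a (1795 to 1995). The siControl group with Nutlin-3a alone lay above the others, which all overlapped. Nutlin-3a raised BTG3 1.18-fold in siControl (log2 fold change 0.24, SE 0.05, DESeq2 adjusted p 6.38e-05), and its log2 fold change in siRFX7 was 0.06 (95% interval -0.05 to 0.17, DESeq2 adjusted p 0.418), per the authors' deposited tables. With siRFX7 it fell to 0.874 of siControl in Nutlin-3a (-0.19, SE 0.05, DESeq2 adjusted p 0.00235), per the authors' deposited table. In DMSO its log2 fold change was -0.02 (95% interval -0.13 to 0.09, DESeq2 adjusted p 0.852), per the authors' deposited table, and the sign turned with equal group totals (0.04) and with the median gene set to 0 (0.01).

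**Figure D1:**
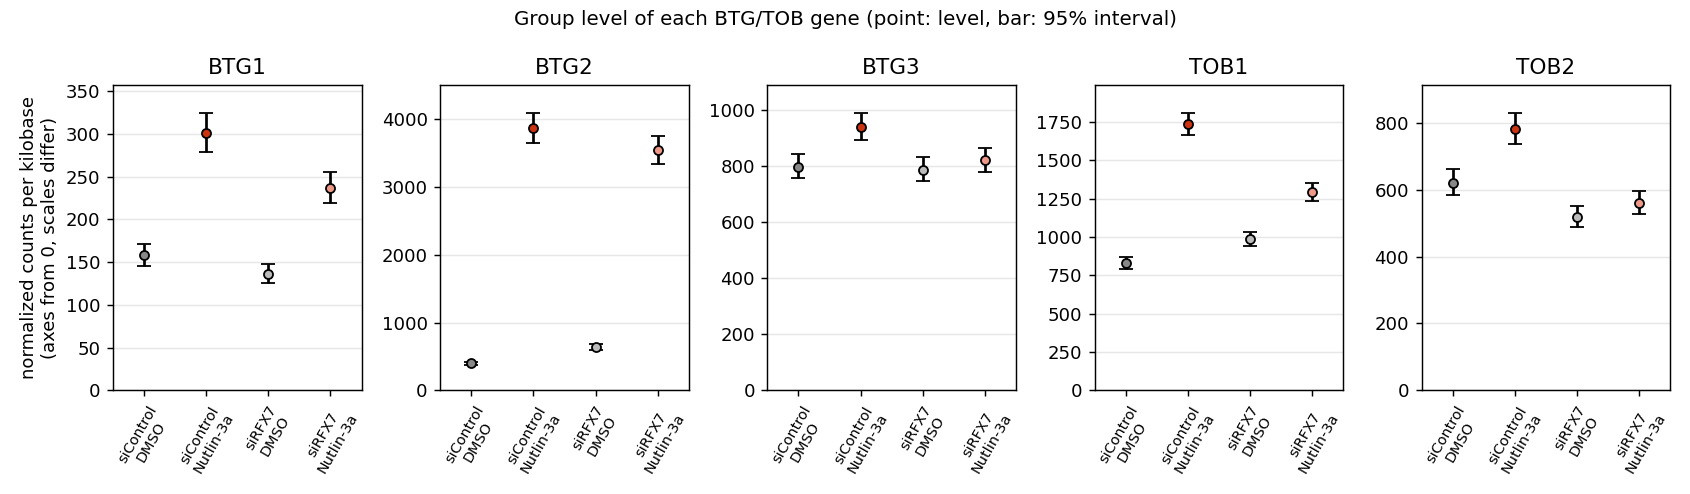
Level of each family member in the 4 groups, as normalized counts per kilobase of annotated exon on a linear axis that starts at 0 and differs between panels. Points are group levels and bars are 95% intervals of the model errors for 3 replicates per group, not the scatter of libraries. BTG2 ran from 396 in siControl with DMSO to 3865 in siControl with Nutlin-3a, while BTG3 stayed between 787 and 939.

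Levels of different genes were compared per kilobase of exon. In siControl with DMSO the order was TOB1 at 831 normalized counts per kilobase, BTG3 at 797, TOB2 at 622, BTG2 at 396 and BTG1 at 158. The intervals of TOB1 and BTG3 overlapped, and every other neighbouring pair was apart. With Nutlin-3a, BTG2 led in both siRNA groups, at 3865 in siControl and 3544 in siRFX7, followed by TOB1 at 1735 and 1292, BTG3 at 939 and 821, TOB2 at 782 and 560, and BTG1 at 301 and 236; all neighbouring intervals were apart. In siRFX7 with DMSO the order was TOB1 at 984, BTG3 at 787, BTG2 at 641, TOB2 at 519 and BTG1 at 136, with all neighbours apart by this length, so that the knockdown alone placed BTG2 above TOB2. BTG2 made up 14.1% of the summed family level in siControl with DMSO, 50.7% in siControl with Nutlin-3a, 20.9% in siRFX7 with DMSO and 54.9% in siRFX7 with Nutlin-3a. The summed level rose 2.72-fold with Nutlin-3a in siControl and 2.11-fold in siRFX7. Without BTG2, the other 4 members together rose 1.56-fold in siControl and 1.2-fold in siRFX7. The place of TOB1 above BTG3 in both DMSO groups depended on the length used: per kilobase of the longest transcript BTG3 stood at 1238 and TOB1 at 940 in siControl, and at 1222 and 1112 in siRFX7, where their intervals overlapped. With Nutlin-3a TOB1 was above BTG3 by either length.

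The Nutlin-3a comparisons ask how the family responds to p53 activation in control cells and in cells with RFX7 knocked down. In siControl all 5 members rose, against 22.0% of all listed genes called higher and 36.6% of the 6184 genes with a mean of at least 1000 normalized counts, the range in which all members lie. In siRFX7 the 3 members BTG1, BTG2 and TOB1 rose, against 21.7% of listed genes and 38.5% of those with at least 1000 counts. The median log2 fold change of the 5 genes was 0.93 in siControl and 0.39 in siRFX7, per the authors' deposited tables, beside medians over all listed genes of 0.02 and -0.02. Among the 6184 well-covered genes, BTG2 ranked 9 from the top in siControl and 11 in siRFX7. TOB1 ranked 262 in siControl and 1300 in siRFX7, whereas BTG1 ranked 340 and 493. These comparisons share no library with each other, but each shares its libraries with the siRFX7 comparisons.

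The siRFX7 comparisons ask which members differ with RFX7 knockdown without and with p53 activation. In DMSO 4 of 5 members changed, BTG2 and TOB1 upward and BTG1 and TOB2 downward, against 29.0% of listed genes called in either direction and 44.4% of those with at least 1000 counts. The 4 calls were therefore split by direction, and the median log2 fold change of the family was -0.02, per the authors' deposited table. Of these calls, that of BTG1 held under 2 of the 7 alternative settings described below. The call held under 5 for TOB2, 6 for TOB1 and 7 for BTG2. In Nutlin-3a 4 of 5 members fell, all but BTG2, against 13.6% of listed genes called lower and 22.2% of those with at least 1000 counts. The family's median log2 fold change there was -0.35, per the authors' deposited table, beside 0.00 over all listed genes. Of the epithelial markers, 3 of 5 fell and 1 rose in this comparison, with a median of -0.32 (KRT8 -0.32, KRT18 -0.45 and KRT19 -0.33), per the authors' deposited table. Their part in the family's fall was not tested. Beside the 1 rise, 15.0% of listed genes were called higher, and 20.8% of those with at least 1000 counts. The steepest falls in Nutlin-3a were those of TOB2 and TOB1, with 4.72% and 6.11% of the well-covered genes lower still. None of the 4 falls in Nutlin-3a reached a log2 size of 0.58.

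**Figure D2:**
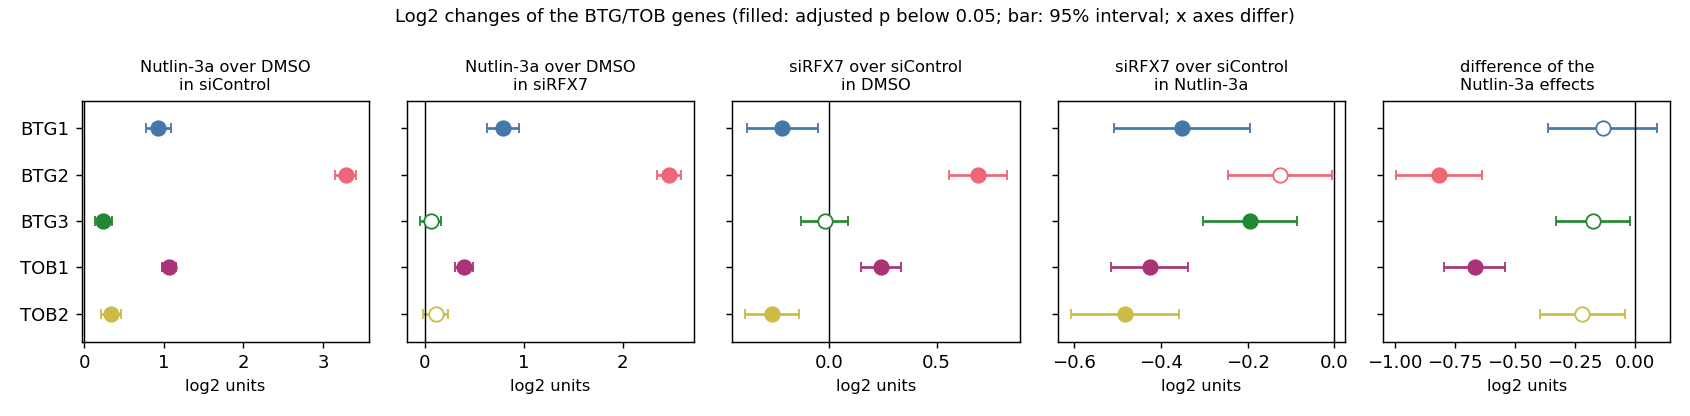
Log2 changes of the 5 genes in the 4 deposited comparisons and in the difference of the Nutlin-3a effects (siRFX7 minus siControl), with 95% intervals; filled points have an adjusted p below 0.05 and the x axes differ. BTG2 and TOB1 are the filled points in the last panel, at -0.82 and -0.67.

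The difference between the Nutlin-3a effects asks whether the response itself changed with the knockdown; it was tested as the log2 fold change in siRFX7 minus that in siControl, by a two-sided z test adjusted over 23195 genes with Benjamini-Hochberg. All 5 differences were below 0, and 2 of 5 passed the test, against 2.92% of listed genes called below 0 and 5.13% of those with at least 1000 counts. The difference was -0.82 for BTG2 (SE 0.09, z test adjusted p 1.11e-16) and -0.67 for TOB1 (SE 0.07, z test adjusted p 6.00e-22). Among the 6184 well-covered genes BTG2 ranked 52 and TOB1 ranked 75 from the lowest value. It was -0.22 for TOB2 (95% interval -0.40 to -0.04, adjusted p 0.148), -0.18 for BTG3 (-0.33 to -0.02, adjusted p 0.202) and -0.13 for BTG1 (-0.36 to 0.09, adjusted p 0.677), none of which passed; their unadjusted p-values were 0.0146, 0.0240 and 0.248. These intervals include falls as well as values close to 0, so the test does not show that TOB2, BTG3 and BTG1 kept their response.

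BTG2 and TOB1 reached similar differences by different routes. For BTG2 the siRFX7 effect was 0.69 in DMSO and -0.12 in Nutlin-3a, per the authors' deposited tables, so most of its difference lay in a higher level without the drug. For TOB1 the siRFX7 effect was 0.24 in DMSO and -0.43 in Nutlin-3a, per the authors' deposited tables, so the larger part lay in a lower level under the drug. In siRFX7, BTG2 kept 75.1% of its log2 response in siControl (SE 2.44 percentage points) and TOB1 kept 37.0% (SE 4.62 percentage points). The corresponding share was 85.6% for BTG1 (SE 11.6), 33.5% for TOB2 (SE 20.4) and 25.8% for BTG3 (SE 24.1), the last 2 with wide errors. In normalized counts, the Nutlin-3a rise of BTG2 was 9560 in siControl and 8010 in siRFX7, and that of TOB1 was 2280 and 777. MDM2 and CDKN1A, which are p53 targets outside the family, had differences of -0.69 and -0.93 by the same z test (adjusted p 1.90e-12 and 7.17e-10). CDKN1A rose with siRFX7 in DMSO by 1.29 and MDM2 by 0.49 in log2 units, per the authors' deposited tables, beside 0.69 for BTG2. Under Nutlin-3a the siRFX7 effect was 0.35 for CDKN1A and -0.21 for MDM2 (DESeq2 adjusted p 0.00117 and 0.00456), per the authors' deposited table.

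**Figure D3:**
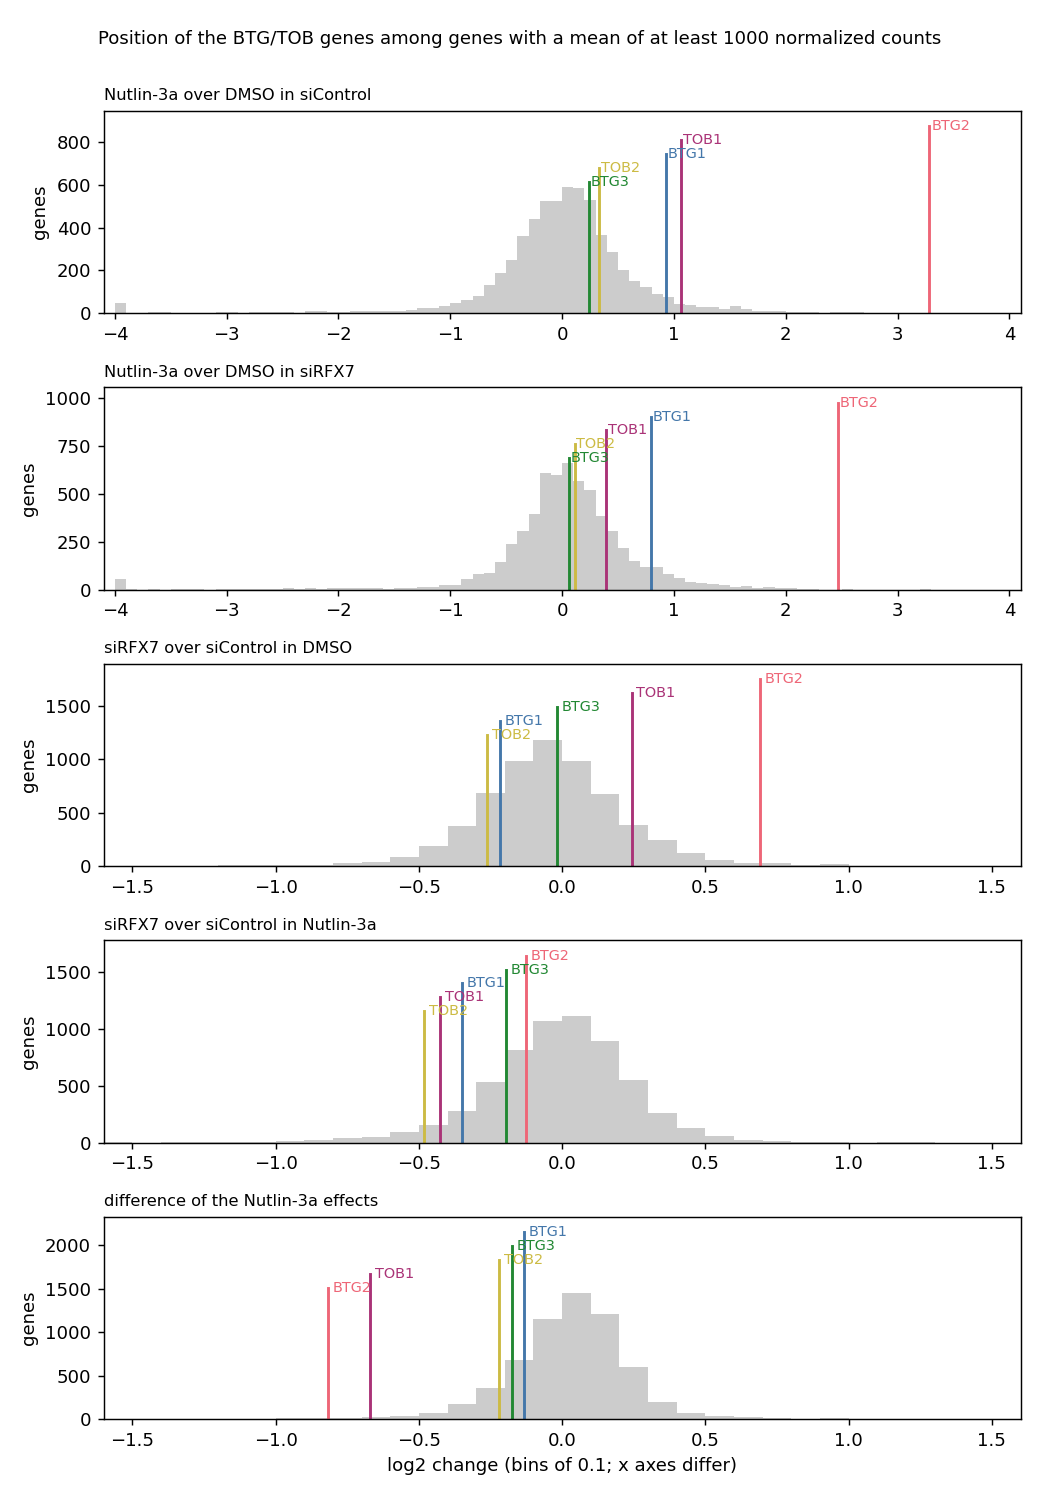
Log2 changes of all 6184 genes with a mean of at least 1000 normalized counts, as gray bars counting genes in bins of 0.1, with the 5 family members as coloured lines whose heights carry no value. The upper 2 panels run to 4 on either side, with larger values in the end bins, and the lower 3 show -1.6 to 1.6; BTG2 lies in the right tail of the Nutlin-3a panels and, with TOB1, in the left tail of the last panel.

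TOB1 and BTG3 overlap annotated antisense genes, and the handling of strand in the counting is not given in the sources used here, so reads in the overlap cannot be assigned with certainty. TOB1-AS1 (ENSG00000229980), named here after its values were seen, starts on the plus strand 325 bases from the downstream TOB1 start and lies opposite 11.1% of the TOB1 exon bases. It was scarce, with 22.0 normalized counts in siControl with DMSO (95% interval 15.9 to 30.4), 52.5 in siControl with Nutlin-3a (40.2 to 68.5), 22.5 in siRFX7 with DMSO (16.3 to 31.0) and 14.5 in siRFX7 with Nutlin-3a (10.0 to 20.9). Only the siControl cells with Nutlin-3a stood above the other 3 groups. TOB1-AS1 fell with siRFX7 in Nutlin-3a (log2 fold change -1.86, SE 0.34, DESeq2 adjusted p 4.66e-07), and its value in DMSO was 0.03 (SE 0.33, DESeq2 adjusted p 0.963), per the authors' deposited tables. Its Nutlin-3a difference between siRFX7 and siControl was -1.89 (SE 0.47, z test adjusted p 0.00244). BTG3-AS1 covers 12.1% of the BTG3 exon bases and had 16.7, 42.8, 20.0 and 37.4 normalized counts in the 4 groups in the order given above. Nutlin-3a raised BTG3-AS1 by 1.36 in siControl (DESeq2 adjusted p 8.53e-05) and by 0.91 in siRFX7 (adjusted p 0.01) in log2 units, per the authors' deposited tables. For BTG1 6.70% of exon bases lie opposite other annotated exons, and BTG2 and TOB2 have no such overlap. BTG1 exons also overlap exons of LINC01619, an annotated gene on the same strand. Reads there cannot be assigned with certainty however strand was handled, and the effect on the BTG1 level was not tested.

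The deadenylation machinery through which the family acts moved in mixed directions, with more of its genes falling than rising in each of the 4 deposited comparisons. Of 16 genes of the CCR4-NOT and PAN2-PAN3 complexes and poly(A) binding proteins, 2 rose and 8 fell with Nutlin-3a in siControl, and 2 rose and 9 fell in siRFX7, with medians of -0.18 and -0.15 in log2 units, per the authors' deposited tables. Over all listed genes, 21.2% were called lower in siControl (32.8% of those with at least 1000 counts) and 19.7% in siRFX7 (28.3%), beside the shares called higher given above. Both deadenylases bound by BTG and TOB proteins fell with Nutlin-3a, per the authors' deposited tables: CNOT7 by 0.38 in siControl and 0.43 in siRFX7 (DESeq2 adjusted p 4.56e-14 and 3.65e-18), and CNOT8 by 0.29 and 0.15 (DESeq2 adjusted p 2.07e-06 and 0.0255). CNOT7 rose with siRFX7 by 0.28 in DMSO and 0.23 in Nutlin-3a in log2 units, per the authors' deposited tables. CNOT6L, another deadenylase of the complex, fell by 0.61 with Nutlin-3a in siControl and by 0.26 in siRFX7 in log2 units, per the authors' deposited tables. Its paralog CNOT6 went the other way, per the authors' deposited tables. It rose by 0.49 in siControl and 0.65 in siRFX7 in log2 units (DESeq2 adjusted p 3.38e-11 and 6.97e-19).

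With siRFX7, 2 of the 16 deadenylation genes rose and 8 fell in DMSO, and 3 rose and 7 fell in Nutlin-3a, with medians of -0.18 and -0.10 beside 0.00 over all listed genes in both, per the authors' deposited tables. Among all listed genes in DMSO, 13.5% were called higher and 15.5% lower (16.5% and 27.8% of those with at least 1000 counts), and in Nutlin-3a 15.0% were called higher (20.8%) and 13.6% lower. With equal group totals, 2 of the 16 rose and 6 fell in DMSO and 3 rose and 4 fell in Nutlin-3a, and at an adjusted p threshold of 0.01 the latter were 2 and 3. PABPC1, the main cytoplasmic poly(A) binding protein and a direct partner of TOB proteins, fell with siRFX7 by 0.29 in DMSO and 0.58 in Nutlin-3a in log2 units, per the authors' deposited tables. Its paralog PABPC4 fell by 0.49 and 0.91 in log2 units, per the authors' deposited tables. Both are uncertain in so far as related copies share sequence and the treatment of reads with several matches is not given in the sources used here. The Nutlin-3a difference passed the z test for 3 of the 16: PABPC1 at -0.29 (adjusted p 1.25e-04), PABPC4 at -0.42 (adjusted p 0.0204) and TNKS1BP1, a protein associated with CCR4-NOT, at 0.43 (adjusted p 1.02e-06). Over all listed genes, 3.28% were called above 0 (7.89% of those with at least 1000 counts), beside the 2.92% below 0. The list's median difference was -0.04, beside 0.00 over all listed genes. For CNOT6L, with 0.35, the adjusted p was 0.0525, and for CNOT7 and CNOT8 the differences were -0.05 and 0.14 (adjusted p 0.842 and 0.399).

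Genes of decapping and 5' to 3' decay, which act after deadenylation, gave 2 rises and 4 falls among 9 with Nutlin-3a in siControl, and 2 rises and 3 falls in siRFX7, with medians of -0.08 and 0.04 in log2 units, per the authors' deposited tables. These 2 of 9 higher stand against 22.0% and 21.7% of all listed genes, and the 4 and 3 lower against 21.2% and 19.7%. For genes with at least 1000 counts, the shares were 36.6% and 38.5% higher, and 32.8% and 28.3% lower. With equal group totals 1 rose in each comparison and the median in siRFX7 was -0.02. DCP1B, a decapping cofactor, rose with Nutlin-3a by 0.92 log2 units in siControl and by 0.64 in siRFX7, per the authors' deposited tables. With siRFX7 none rose and 3 fell in DMSO, and 1 rose and 3 fell in Nutlin-3a, against the shares over all genes given for the deadenylation list, and the RNA helicase DDX6 fell by 0.35 in DMSO and 0.22 in Nutlin-3a in log2 units, per the authors' deposited tables. No Nutlin-3a difference passed the z test for these 9 genes, and none had an unadjusted p below 0.05. The values were -0.28 for DCP1B, 0.21 for the exonuclease XRN1, 0.12 for DDX6 and 0.12 for EDC4. Few genes passed this test in general, with 2.92% of listed genes called below 0 and 3.28% above.

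Other reported partners and targets comprised 7 measured genes of 8, since CPEB1 was not analysed here. With Nutlin-3a 3 rose and 2 fell in siControl and 4 rose and 1 fell in siRFX7, per the authors' deposited tables. Over all listed genes the share called higher was 22.0% for siControl and 21.7% for siRFX7, and the share called lower was 21.2% and 19.7%. Among genes with at least 1000 counts, 36.6% and 38.5% were called higher, and 32.8% and 28.3% lower. At an adjusted p threshold of 0.01, 3 rose and none fell in siControl. CCND1, the G1 cyclin D1 whose transcription TOB1 is reported to repress, rose by 1.61 in siControl and 0.83 in siRFX7 in log2 units, per the authors' deposited tables. With siRFX7 CCND1 fell by 0.14 in DMSO (DESeq2 adjusted p 0.00495) and by 0.92 in Nutlin-3a (DESeq2 adjusted p 5.89e-105) in log2 units, per the authors' deposited tables. The call in DMSO was lost with equal group totals (-0.08, adjusted p 0.136). Its Nutlin-3a difference of -0.78 (SE 0.06, z test adjusted p 1.40e-36) was the only one of the 7 that passed. Over all listed genes 2.92% were called below 0 and 3.28% above (5.13% and 7.89% of those with at least 1000 counts). SMAD5, a mediator of BMP signalling, rose by 0.65 and 0.86 with Nutlin-3a in siControl and siRFX7 in log2 units, per the authors' deposited tables, and its difference was 0.20 (adjusted p 0.362). PRMT1 had log2 fold changes of 0.05 (DESeq2 adjusted p 0.547) and 0.15 (DESeq2 adjusted p 0.0282) in the same comparisons of the authors' deposited tables, and a difference of 0.10 (adjusted p 0.656). The call of PRMT1 in siRFX7 was lost with equal group totals (0.10, adjusted p 0.193) and with the median gene set to 0 (0.12, adjusted p 0.0805). The homeobox factor HOXB9 had a difference of 0.13 (adjusted p 0.609).

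**Figure D4:**
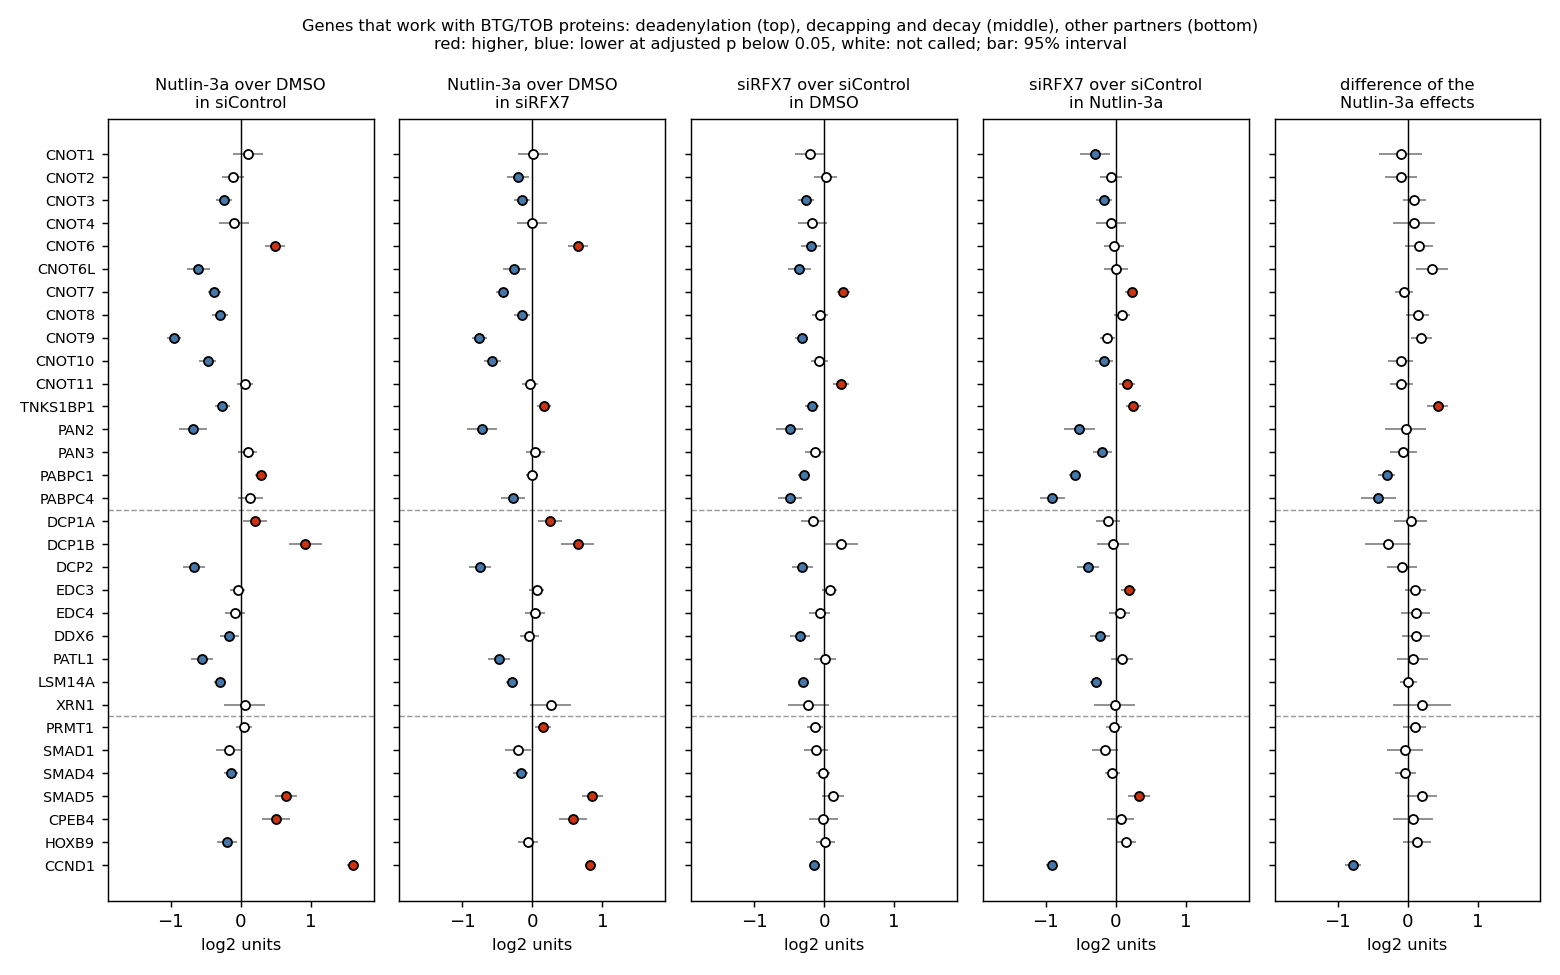
Log2 changes of 32 genes that work with BTG and TOB proteins, in the 4 deposited comparisons and in the difference of the Nutlin-3a effects, with 95% intervals; dashed lines separate deadenylation, decapping and decay, and other partners. Red points are higher and blue points lower at an adjusted p below 0.05; the last panel has 4 coloured points, those of TNKS1BP1, PABPC1, PABPC4 and CCND1.

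The family members did not share one pattern across the groups. With each gene's 4 log2 group levels centred on their own mean, the Euclidean distance was smallest between BTG3 and TOB2 (0.276) and between BTG1 and TOB1 (0.356), and BTG2 lay at least 2.12 from every other member. Among 12452 other genes with a mean of at least 100 normalized counts, the patterns nearest to BTG2 were those of PRODH (distance 0.133), HES2 (0.172) and ALOX5 (0.229). Nearest to TOB1 were ARL14EPL (0.0620), ABAT (0.0889) and IP6K2 (0.142). For BTG1 the nearest genes were ETHE1 (0.0426), GOLGB1 (0.0526) and PLXNB2 (0.0707). For BTG3 they were TRIM41 (0.0264), DDX54 (0.0287) and FTSJ1 (0.0289), and for TOB2 ZNF517 (0.0383), AC004224.1 (0.0436) and EIF3FP3 (0.0450), the last of which is named as a pseudogene and could take reads of its parent gene. These distances rest on 4 group levels each, and genes that vary little lie close to many others.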

How the data were processed

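Per the submitters' processing notes, reads were handled with featureCounts 1.6.5 and DESeq2 1.20.0, among other tools, on hg38; the aligner, annotation and handling of strand are not given in the sources used here. The authors deposited 4 DESeq2 tables. Their mean normalized count is a signal (counts over size factors), their fold changes and standard errors are on a log2 scale, their statistic is a score (fold change over standard error), and their p-value columns include a Benjamini-Hochberg adjusted p, all per the file headers and checked on the values. Fold changes closed across the tables to within 1.27e-14 when read as siRFX7 over siControl.

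Calls used an adjusted p below 0.05 in each deposited table. The difference of the Nutlin-3a effects was a z test over 23195 genes (Python 3.11.15, scipy 1.17.1), which takes the standard errors as known. It was run on simulated data whose noise was drawn from the same standard errors, which cannot check that assumption. Group levels and dispersions were solved from the deposited values, taking size factors as equal within 3 replicates; intervals are 95% normal intervals of the model errors. Depth of single libraries is unknown. Exon lengths came from GENCODE 29, which held 23164 of the 23195 gene IDs. The 5 members, the partner lists (16, 9 and 8 genes) and the rules for named genes (listed partners with the largest differences, and the 3 nearest patterns per member) were chosen with earlier results of these data known. A planned fallback test on counts was not needed. Alternatives were a threshold of 0.01, a minimum log2 size of 0.58, Bonferroni adjustment, 2 rescalings and 2 gene filters.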

Additional observations from a re-analysis of the deposited data

Results flagged for a closer look

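By the z test, 2 of the 5 family members responded differently to Nutlin-3a in knockdown and control cells, BTG2 (-0.82 on the log2 scale) and TOB1 (-0.67). Among the genes described beside them it also differed for CCND1 (-0.78), PABPC1 (-0.29), PABPC4 (-0.42), TNKS1BP1 (0.43) and the antisense gene TOB1-AS1 (-1.89), and for the p53 targets CDKN1A (-0.93) and MDM2 (-0.69). The epithelial marker KRT19 differed as well (-0.67, z test adjusted p 2.10e-04). TOB1 and TOB1-AS1, which lie on opposite strands, both differed downward; TOB1-AS1 starts 325 bases from the downstream of the 2 TOB1 starts, and use of these starts was not measured. No value per library was used, so single libraries could not be examined.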

How the results depend on the processing

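The differences of the Nutlin-3a effects for BTG2 and TOB1 passed under all 7 alternatives, with ranges of -0.85 to -0.82 and -0.70 to -0.67. A minimum log2 size of 0.58 left 5198 and 4830 genes called for Nutlin-3a in siControl and siRFX7, 1547 and 1482 for siRFX7 in DMSO and Nutlin-3a, and 544 differences; it left 3 members called for Nutlin-3a in siControl, 1 for the knockdown in DMSO and 0 under the drug. Bonferroni adjustment left 5381, 5012, 1940, 1915 and 392 genes in the same order, and 2 members in each siRFX7 comparison. A threshold of 0.01 left 863 differences, against 1437. The siRFX7 value of BTG3 in DMSO turned from -0.02 to 0.038 with equal group totals and to 0.015 with the median gene set to 0. Called genes split into 2704 higher and 3107 lower for siRFX7 in DMSO, but 3391 and 2262 with equal totals and 1044 and 503 with the minimum size; the differences split 760 and 677, but 583 and 792 with equal totals. Per length of the longest transcript, BTG3 stood at 1238 and TOB1 at 940 normalized counts per kilobase in siControl with DMSO; without bases covered by the other strand, chosen after seeing the data, they stood at 907 and 935. With a minimum of 1000 counts, 9 of the 15 nearest genes remained. This filter removes genes but changes no distance, so it does not check how stable the patterns are. Leaving out replicates was not run. No paired analysis was possible because the tables hold no value per library.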
